A study of Mus musculus with 3 samples.

Results

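Chemokine ligand genes encode the small secreted proteins that steer migrating leukocytes. They were taken here as every gene on the array whose symbol starts with Ccl, Cxcl or Cx3cl followed by a digit, leaving out Ccl19 and Ccl21a, which encode ligands of the receptor CCR7. The rule found 35 genes among the 19505 named genes. Of these 35, 19 had a mean log2 level over the 3 arrays at or above 5.28, a background level set at the 95th percentile of the 1412 genes named Olfr or Vmn, chemosensory receptors that blood cells do not normally express. That is 54.3% of the ligand genes, against 54.7% of all named genes. All levels below are deposited expression values read as log2, a base inferred from their range. On that reading a difference of 1 is 2-fold.

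The cells were plasmacytoid dendritic cells, a dendritic cell subset specialised in secreting type I interferon, grown from bone marrow of wild-type male BALB/c mice that were 4 to 5 weeks old. Marrow cells were kept for 6 to 9 days with Flt3 ligand at 100 ng/mL in a medium holding serum, 2-mercaptoethanol, penicillin, streptomycin and L-glutamine. The cells were then matured with CpG oligodeoxynucleotides, ligands of TLR9, and sorted. The control group held 1 array, the group given the saponin astragaloside IV from Astragalus held 1, and the group given the Sophora alkaloid oxymatrine held 1. Both compounds were given for 12 h, followed by CCL21 for 1 h. All 3 samples carry the same protocol text, which names the CCL21 step without setting the control apart, so it does not settle whether control cells received CCL21. Doses, any vehicle and any pooling of mice are not stated. The study asked how both compounds suppress the migration of these cells.

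With 1 array per group no difference has a replicate check, and no p-value or standard error was computed. Counts of ligand genes are therefore read beside the same counts over all 10671 genes above background. Each array is a bulk sample, in which fewer cells of a type and less RNA per cell cannot be told apart.

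Chemokines are named by the spacing of their first cysteines, as CC, CXC or CX3C ligands, and they act through G protein-coupled receptors. Inflammatory chemokines are switched on by NF-kB and interferon regulatory factors after toll-like receptor signals, whereas homeostatic chemokines are made mainly by stromal and epithelial cells. Activated plasmacytoid dendritic cells are known as sources of CCR1, CCR3 and CXCR3 ligands, which draw T cells and NK cells.

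The labelled cell type was checked against its markers. All 9 plasmacytoid dendritic cell markers analysed were above background in mean level. Tcf4 was at 14.37 in each array, and Siglech at 8.99 in control, 8.99 under astragaloside IV and 9.02 under oxymatrine. All 9 markers of monocytes and macrophages, cells that also make many chemokines, were above background as well, among them Adgre1 at 14.12, 13.98 and 14.12 in the same order. Against control, 4 plasmacytoid dendritic cell markers were lower, 0 higher and 5 equal under astragaloside IV, with a mean difference of -0.08. Under oxymatrine 5 were lower, 1 higher and 3 equal, with a mean of -0.14. The lowest were Ly6d at -0.30 and Spib at -0.48 in that order. With astragaloside IV, 39.9% of the 10671 genes lay below control, 30.6% above it and 29.5% level with it. With oxymatrine these shares came to 45.2%, 28.9% and 25.9%. The mean difference over the 10671 genes was -0.02 with astragaloside IV and -0.04 with oxymatrine. In each array the mean level of the plasmacytoid dendritic cell list was below that of the monocyte and macrophage list. Levels of different probe sets do not rank the cell types. Of 8 neutrophil markers 3 were above background, and of 5 stromal markers 1 was. For conventional type 1 dendritic cells 4 of 6 markers were above background, and the defining Xcr1 and Clec9a were not, and for type 2 cells 4 of 6 were. The share of all named genes above background was 54.7%.

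None of the 19 ligand genes above background reached a 1.5-fold difference in any of the 3 pairwise comparisons. Over all genes above background, 1.5-fold was reached by 2.13% for astragaloside IV against control, by 3.31% for oxymatrine against control and by 2.58% for astragaloside IV against oxymatrine. At 2-fold these shares were 0.197%, 0.281% and 0.159%. All 19 were at or above the background level in each of the 3 arrays, so none passed the filter through 1 array alone. Of the 19, 6 had exactly the same value in at least 2 arrays, or 31.6%, against 51.6% of all genes above background.

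**Figure D1:**
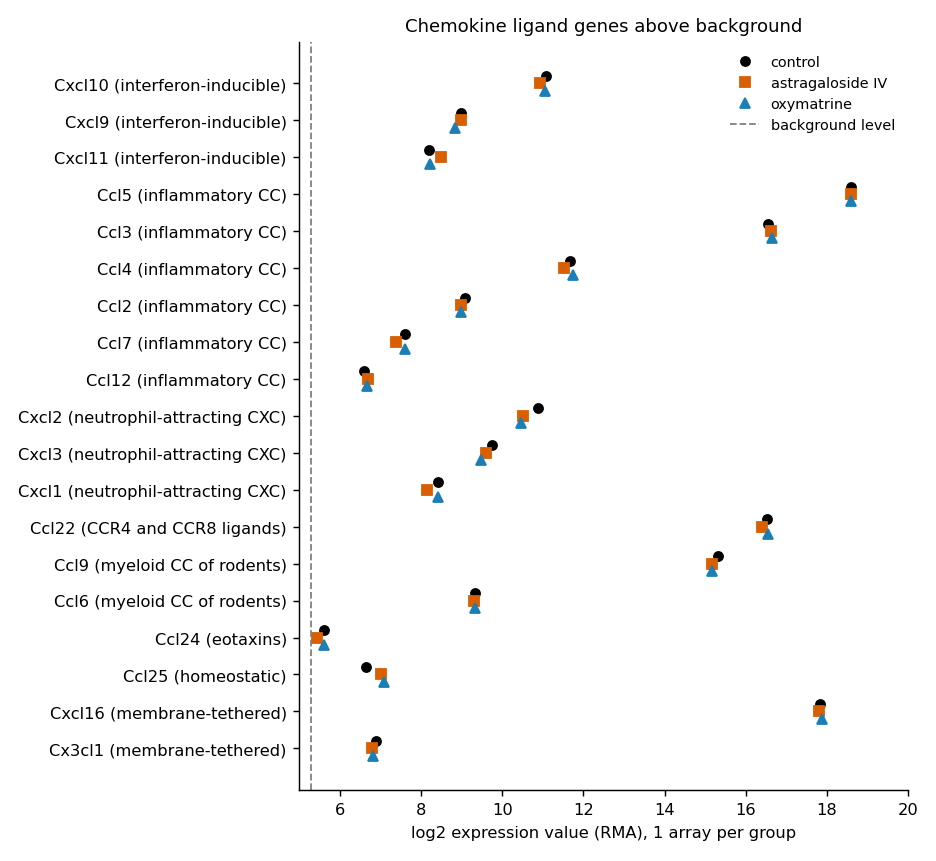
Log2 expression value (horizontal axis) of the 19 chemokine ligand genes above background, with 1 point for each of the control, astragaloside IV and oxymatrine arrays and the role of each gene in brackets. The dashed line is the background level of 5.28; the 3 points of a gene lie within 0.46 of each other, while genes range from 5.54 for Ccl24 to 18.60 for Ccl5 in mean level.

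The inflammatory CC ligands were represented by 6 of 8 listed genes. Ccl5, which attracts T cells through CCR1 and CCR3, was at 18.60 in each array. Only 8 of the 19505 named genes had a mean level as high, and the highest value of any probe set was 19.67. Equal values in all 3 arrays were found for 11.3% of the 186 genes at a level of 16 or more and for 13.6% of all genes above background, so the equality of Ccl5 does not set it apart.

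Ccl3, a ligand of CCR1 that draws monocytes and T cells, was at 16.55 in control, 16.62 under astragaloside IV and 16.64 under oxymatrine. Ccl4, a close relative of Ccl3, was at 11.67, 11.52 and 11.75 in the same order. The array under astragaloside IV was thus the lowest of the 3 for Ccl4, whereas for Ccl3 the control array was. The difference of Ccl4 from control was -0.15 under astragaloside IV and 0.08 under oxymatrine. Between the treated arrays it was -0.23, or -1.60 times the SD of 0.14 that this difference had over genes of similar level.

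The CCR2 ligands, which recruit monocytes, differed by little between the arrays. Ccl2 was at 9.08 in control and 8.98 in both treated arrays. Ccl7 was at 7.60 in control, 7.38 under astragaloside IV and 7.60 under oxymatrine. Ccl12 was at 6.60, 6.69 and 6.66 in the same order. Control was therefore highest for Ccl2, equal to oxymatrine and above astragaloside IV for Ccl7, and lowest for Ccl12. Over the 6 inflammatory CC genes above background, astragaloside IV left 3 lower, 2 higher and 1 equal, with a median difference of -0.05. With oxymatrine 1 was lower, 3 higher and 2 equal, with a median of 0.03. Of all genes above background, 39.9% were lower and 30.6% higher under astragaloside IV, and 45.2% and 28.9% under oxymatrine. The levels of the ligand genes come from different probe sets, whose brightness per transcript can differ, so they do not order the transcripts by abundance.

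The 3 interferon-inducible CXC ligands, all of which bind CXCR3 on activated T cells and NK cells, were above background, and their differences had no common sign. Cxcl10 was at 11.07 in control, 10.92 under astragaloside IV and 11.04 under oxymatrine. In the same order, Cxcl9 was at 8.99, 8.99 and 8.84, and Cxcl11 at 8.19, 8.49 and 8.21. The low array was thus astragaloside IV for Cxcl10, oxymatrine for Cxcl9 and control for Cxcl11. Cxcl11 was higher under astragaloside IV by 0.29 against control and by 0.27 against oxymatrine, or 1.26 and 1.19 times the SD at its level. In the RefSeq annotation of the C57BL/6J reference genome Cxcl11 is classed as a transcribed pseudogene, while the cells here were of the BALB/c strain. The median difference from control over these 3 genes was 0 under astragaloside IV and -0.02 under oxymatrine.

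The neutrophil-attracting CXC ligands, which act through CXCR2, held the lowest values against control. Cxcl2 was at 10.89 in control, 10.51 under astragaloside IV and 10.45 under oxymatrine, so both treated arrays lay below control and close to each other. Cxcl3 was at 9.74, 9.60 and 9.47 in the same order, again with control highest. Cxcl1 was at 8.42 in control, 8.16 under astragaloside IV and 8.42 under oxymatrine, where only the astragaloside IV array was low. The fourth gene of the list, Cxcl5, was below background at 3.43, 3.61 and 3.43.

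Against control, Cxcl2 differed by -0.38 under astragaloside IV, a 1.30-fold lower value, and by -0.44 under oxymatrine, a 1.36-fold lower value. These are -2.50 and -2.41 times the spread (SD) that each comparison had among genes of about this level, 0.15 and 0.18. Both differences use the same control array. Cxcl2 was the only 1 of the 19 genes at 2 SD or more in either comparison, where 6.96% of all genes above background were under astragaloside IV and 7.21% under oxymatrine. Cxcl3 differed by -0.14 and -0.27, and Cxcl1 by -0.26 and 0. The directions of Cxcl2 and Cxcl3 were the same after centring on the median, quantile normalisation and lowess centring. Cxcl1 under oxymatrine, listed as equal, took a sign under all 3 of these settings.

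The 3 neutrophil markers above background were lowest in the astragaloside IV array, as Cxcl1 was, whereas Cxcl2 and Cxcl3 were lowest in the oxymatrine array. These markers, Lcn2, Csf3r and Mmp8, differed from control by -0.51, -0.49 and -0.26 under astragaloside IV, and by -0.27, -0.10 and 0 under oxymatrine. Their mean difference was -0.42 under astragaloside IV and -0.13 under oxymatrine. Over all 8 neutrophil markers analysed the mean log2 level was 6.85 in control, 6.62 under astragaloside IV and 6.84 under oxymatrine. That mean includes S100a8, S100a9, Mpo, Elane and Camp, which were below background in mean level. S100a8 was at 5.52 in control, 4.71 under astragaloside IV and 4.84 under oxymatrine, and Elane at 3.62, 3.92 and 4.60. For the 9 monocyte and macrophage markers the mean was 11.56, 11.47 and 11.49 in the order control, astragaloside IV and oxymatrine. Against control 4 were below, 2 above and 3 level under astragaloside IV, with 3 below, 0 above and 6 level under oxymatrine. Of all genes above background, 39.9% were lower and 30.6% higher under astragaloside IV, and 45.2% and 28.9% under oxymatrine. The part of neutrophils, monocytes and macrophages in the chemokine values was not tested.

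Promoters are shown for Cxcl10, Cxcl2 and Cxcl3, which are among the brightest ligand genes with a searched motif, and for Cxcl1, added because it carries the same NF-kB letters as Cxcl2 and Cxcl3. In RefSeq promoters of GRCm38.p6, which hold 250 bases before and 50 after each gene's start, 23 of the 35 ligand genes were found, 12 of them above background. The stretches below end at the base before the start and run 5′ to 3′ on the gene's strand. Capitals mark matches to 3 motifs, each searched on both strands. The NF-kB site was searched as GGGA and TTCC with any 2 bases between them, the core of the interferon-stimulated response element as GAAA and GAAA with any 2 bases between them, and the TATA box as TATAAA. Cxcl10 is at chr5:92348890-92349139 on the minus strand, Cxcl2 at chr5:90903779-90903898, Cxcl3 at chr5:90785981-90786100 and Cxcl1 at chr5:90891125-90891244, the last 3 on the plus strand.
Cxcl2: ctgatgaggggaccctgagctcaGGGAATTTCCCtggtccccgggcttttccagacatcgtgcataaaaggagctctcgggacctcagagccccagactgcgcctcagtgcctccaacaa
Cxcl3: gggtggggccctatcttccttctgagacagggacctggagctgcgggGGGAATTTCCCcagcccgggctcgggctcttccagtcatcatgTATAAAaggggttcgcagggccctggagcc
Cxcl1: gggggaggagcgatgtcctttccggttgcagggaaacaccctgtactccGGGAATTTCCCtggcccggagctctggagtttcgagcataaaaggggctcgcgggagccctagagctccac
Cxcl10: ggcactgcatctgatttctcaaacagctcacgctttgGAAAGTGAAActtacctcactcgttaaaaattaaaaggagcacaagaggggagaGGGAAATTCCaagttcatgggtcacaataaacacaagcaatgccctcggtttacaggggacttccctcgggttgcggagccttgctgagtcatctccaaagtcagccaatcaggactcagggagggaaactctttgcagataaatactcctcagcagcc

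Cxcl1, Cxcl2 and Cxcl3 all hold GGGAATTTCC, which starts 71, 97 and 73 bases before the start in that order, and each match overlaps a match on the other strand shifted by 1 base. Cxcl10 holds GGGAAATTCC, starting 159 bases before the start, and GAAAGTGAAA, starting 213 bases before it. The 23 ligand genes have 26 promoters. The NF-kB letters were found in 5 of the 26, those of these 4 genes and Ccl1. Of all 32851 promoters of the same length 1.47% held them. Cxcl1, Cxcl2 and Cxcl3 lie near each other in the genome, so their matches may not be independent. The interferon response letters were found in 2 of the 26, those of Cxcl10 and Cxcl14, against 3.44% of all promoters. TATAAA was found in 9 of the 26, among them those of Cxcl9, Cxcl3, Ccl9, Ccl12 and Ccl25, against 13.6% of all promoters. A match describes the letters of the reference genome and was not tied to any value of the arrays.

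Ccl22, a CCR4 ligand that dendritic cells use to attract regulatory T cells, was at 16.53 in control, 16.40 under astragaloside IV and 16.56 under oxymatrine. The astragaloside IV array was the lowest, by -0.13 against control and by -0.15 against oxymatrine, or -1.58 and -1.85 times the SD at its level. The other ligand of CCR4, Ccl17, was below background at 5.20, 5.23 and 5.18. Ccl1, the CCR8 ligand, was also below it, at 5.03, 5.03 and 4.65.

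Ccl9 and Ccl6 are CC ligands of rodents that bind CCR1 and are made by myeloid cells. Ccl9 was at 15.31 in control, 15.16 under astragaloside IV and 15.18 under oxymatrine. Both treated arrays lay below control, by -0.14 and -0.13, or -1.82 and -1.19 times the SD at its level. Ccl6 was at 9.32, 9.29 and 9.32, and so was within 0.03 in all arrays.

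The membrane-tethered ligands can be shed from the cell surface by ADAM proteases. Cxcl16, the CXCR6 ligand, was at 17.83 in control, 17.79 under astragaloside IV and 17.87 under oxymatrine. Cx3cl1, the CX3CR1 ligand, was at 6.88, 6.79 and 6.82 in the same order. The spread over the arrays was below 0.1 for both. The Cxcl16 difference from control was -0.04 under astragaloside IV, where it became 0 after quantile normalisation, and 0.04 under oxymatrine, where its sign turned after centring on the median.

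Of the 8 homeostatic ligands listed, Ccl25 was the only 1 above background. It encodes the thymic and intestinal ligand of CCR9, the receptor that directs plasmacytoid dendritic cells to the gut. Ccl25 was at 6.63 in control, 7.01 under astragaloside IV and 7.09 under oxymatrine, with both treated arrays above control. It was higher than control by 0.38, or 1.30-fold, and by 0.46, or 1.37-fold. Against the SD of genes of its level these were 1.48 and 1.68, and both use the same control array. These were the highest differences from control among the 19 genes, and they kept their direction under centring on the median, quantile normalisation and lowess centring. Its receptor gene Ccr9 was at 9.46, 9.20 and 9.15 in the same order.

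Ccl24, an eotaxin that draws eosinophils through CCR3, was at 5.60 in control, 5.42 under astragaloside IV and 5.61 under oxymatrine, just inside the background level with a mean of 5.54. Ccl26, another eotaxin, lay just outside with a mean of 5.26, at 5.15, 5.15 and 5.47. The first gene of the list, Ccl11, was at 4.82, 4.58 and 4.91.

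**Figure D2:**
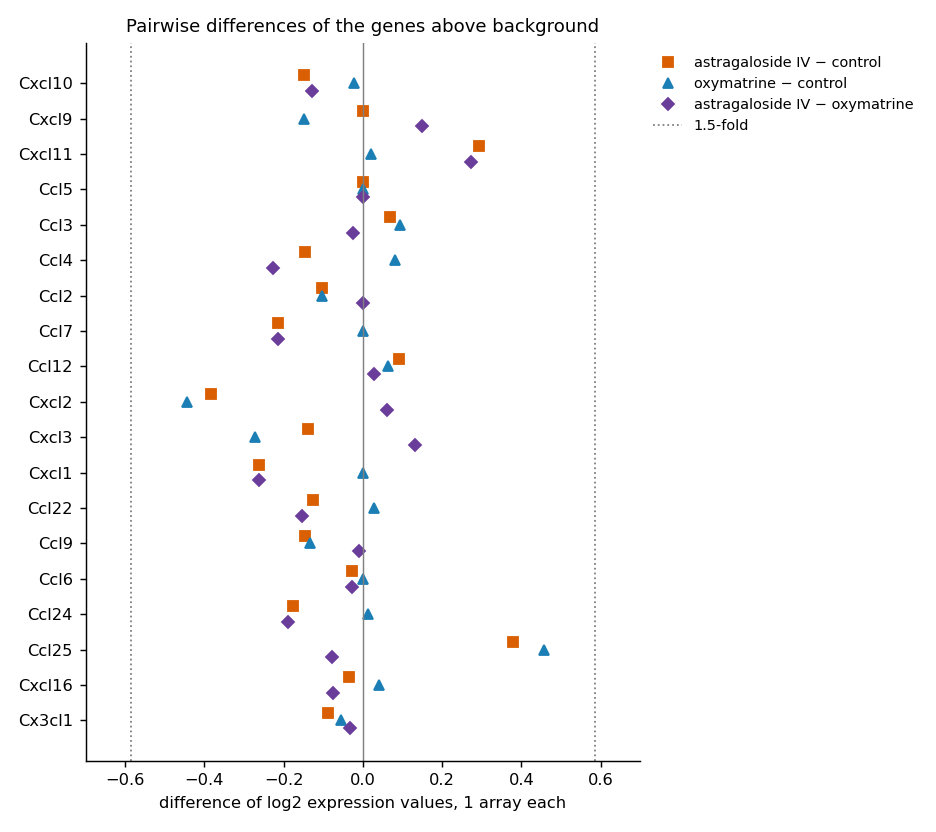
Difference of log2 expression values (horizontal axis) of the 19 genes above background, in the order of the levels plot, for astragaloside IV minus control, oxymatrine minus control and astragaloside IV minus oxymatrine. All points lie inside the dotted lines at 1.5-fold; Cxcl2 has the lowest values against control, -0.38 and -0.44, and Ccl25 the highest, 0.38 and 0.46.

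Counted by sign, with values closer than 0.005 taken as equal, the ligand genes lay mostly low in the astragaloside IV array. Against control, 13 were lower, 4 higher and 2 equal, with a median difference of -0.10. Of all 10671 genes, 39.9% lay lower, 30.6% higher and 29.5% level, with a median of 0. The 4 higher genes were Ccl25, Cxcl11, Ccl12 and Ccl3, and the 2 equal ones Ccl5 and Cxcl9.

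The oxymatrine array showed no such lean in the deposited values. Against control, 7 ligand genes were lower, 8 higher and 4 equal, with a median of 0, while 45.2% of all genes were lower, 28.9% higher and 25.9% equal, also with a median of 0. This split depends on the scaling. Centring each array on its median, which shifts the median of all genes above background by -0.06, gave 15 lower and 3 higher ligand genes. Lowess centring gave 6 lower and 12 higher, and quantile normalisation 9 lower and 10 higher. With astragaloside IV the same settings left 13 to 15 lower and 4 to 6 higher.

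Between the treated arrays, 12 ligand genes were lower under astragaloside IV than under oxymatrine, 5 were higher and 2 equal, with a median of -0.03. All genes above background leaned the other way, with 31.7% lower, 39.8% higher and 28.5% equal. The lowest differences were those of Cxcl1 at -0.26, Ccl4 at -0.23 and Ccl7 at -0.21, and the highest that of Cxcl11 at 0.27. None of the 19 reached 2 SD at its level, where 6.89% of all genes did. The 3 comparisons share arrays in pairs, so their counts are not independent. The compounds are not structural relatives, and their doses are not stated, so these values stand side by side only.

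**Figure D3:**
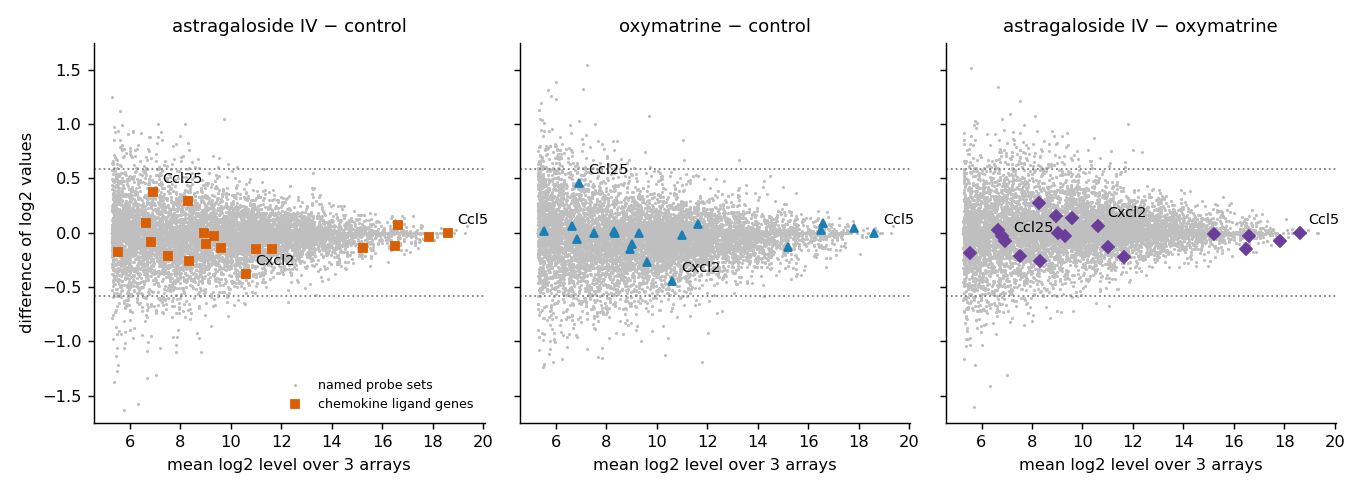
Difference of log2 values (vertical axis) against mean log2 level over the 3 arrays (horizontal axis) for named probe sets above background in grey and the 19 chemokine ligand genes in colour, with 1 panel per comparison and dotted lines at 1.5-fold. The grey cloud narrows as the level rises, and the ligand genes lie within it, with Cxcl2 near its lower edge in both comparisons with control.

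The 16 ligand genes below background had mean levels between 3.47 and 5.26. In order of that mean they were Ccl26, Ccl17, Cxcl13, Ccl20, Ccl8, Ccl1, Ccl28, Ccl11, Ccl21b, Ccl27a, Cxcl12, Cxcl17, Cxcl14, Cxcl15, Cxcl5 and Ccl21c. They include Cxcl12, the stromal ligand of CXCR4, at 4.33 in control, 3.86 under astragaloside IV and 4.33 under oxymatrine. Cxcl13, the B cell attractant that binds CXCR5, was at 5.18 in each array. Ccl20, the CCR6 ligand, was at 5.12, 5.16 and 5.12. A value below background does not show that a gene was silent.

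Ccl8, a CC ligand of monocytes and T cells, was the only ligand gene past 2-fold. It was at 5.47 in control, 4.32 under astragaloside IV and 5.55 under oxymatrine, a difference of -1.15 between astragaloside IV and control and of -1.23 between the treated arrays. The control and oxymatrine values lay 0.19 and 0.27 above the background level, and the astragaloside IV value lay below it, so the size of the difference depends on a signal under the background level. Among all genes below background in mean level, 0.657% were 2-fold apart in the first comparison and 0.736% in the second. Cxcl15, at 3.47, 3.29 and 4.01, was past 1.5-fold between the treated arrays with a difference of -0.73. Among genes below background 6.25% were.

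Ccl21b and Ccl21c encode near-identical copies of the CCR7 ligand CCL21. Ccl21b had 2 probe sets, the brighter of which was at 4.17, 4.24 and 4.72. Its other probe set had exactly the values of Ccl21c, at 3.35, 3.41 and 3.65, so the copies cannot be told apart by these probes.

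**Figure D4:**
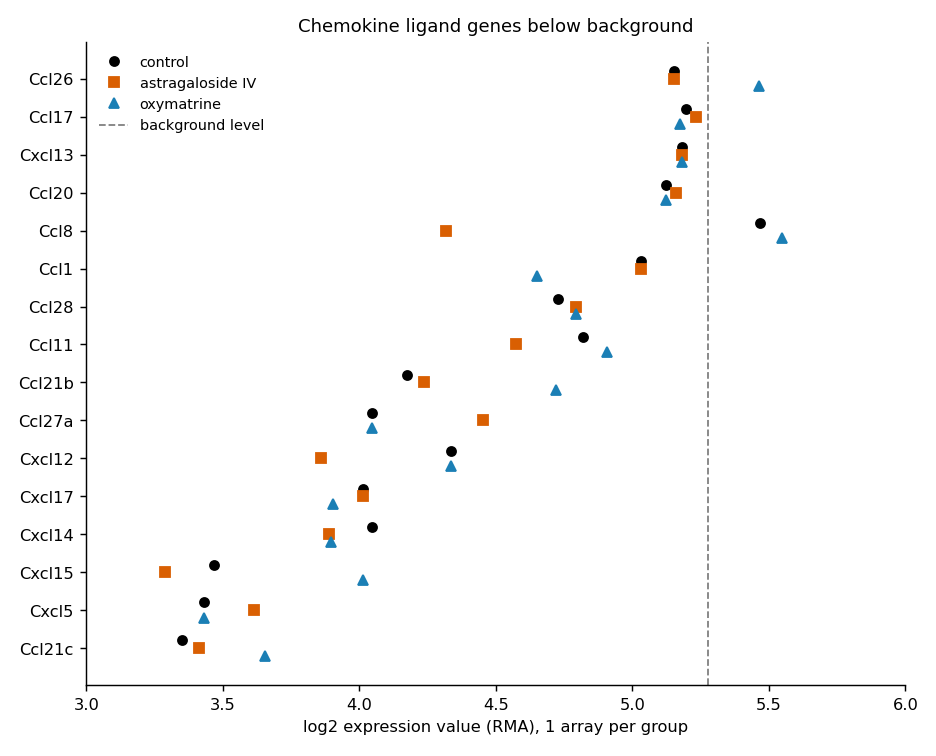
Log2 expression value (horizontal axis) of the 16 chemokine ligand genes below background in mean level, with 1 point for each of the control, astragaloside IV and oxymatrine arrays and a dashed line at the background level of 5.28. Ccl8 stands above the line in control and oxymatrine and at 4.32 under astragaloside IV.

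Many chemokine genes lie side by side in the genome. In the RefSeq annotation of GRCm38.p6, 23 of the 35 ligand genes fell into 6 runs with at most 1 other gene between neighbours. The run of Ccl5, Ccl9, Ccl6, Ccl3 and Ccl4 had 5 of 5 genes above background. In the run of Ccl2, Ccl7, Ccl11, Ccl12, Ccl8 and Ccl1, 3 of 6 were, and in that of Cxcl3, Cxcl15, Cxcl1 and Cxcl2, 3 of 4. Cxcl9, Cxcl10 and Cxcl11 were all above background, while Ccl17 was below it beside Ccl22 and Cx3cl1. Neighbours thus differed in detection in 4 of the 6 runs.

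Other genes of the chemokine system were taken from 5 lists of 45 genes, of which 42 were analysed and 31 were above background. With astragaloside IV 20 of the 31 were lower, 7 higher and 4 equal, and 2 lower ones passed 1.5-fold. With oxymatrine 23 were lower, 4 higher and 4 equal, with 2 lower ones past 1.5-fold. The medians were -0.05 and -0.10. Of all genes above background, 39.9% were lower and 2.13% past 1.5-fold under astragaloside IV, and 45.2% and 3.31% under oxymatrine, with medians of 0.

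Of the chemokine receptors analysed, 10 of 15 were above background. Astragaloside IV left 7 below control, 1 above and 2 level, and oxymatrine left 9 below, 0 above and 1 level, with medians of -0.13 and -0.16. The shares over all genes above background were 39.9% lower and 30.6% higher for astragaloside IV and 45.2% lower and 28.9% higher for oxymatrine. Ccr1, a receptor for Ccl3, Ccl5, Ccl6 and Ccl9, was at 8.18 in control, 7.86 under astragaloside IV and 8.04 under oxymatrine. Ccr3, a receptor of eosinophils, differed from control by -0.81 and -0.57, and Ccr4, the receptor for Ccl22, by -0.09 and -0.72. Cxcr3, which binds Cxcl9 to Cxcl11, was at 6.18 in each array. Cxcr2, which binds Cxcl1 to Cxcl3, was below background in mean level and so is not in these counts. It was at 4.96 in control, 4.87 under astragaloside IV and 5.80 under oxymatrine, where alone it exceeded the background level of 5.28.

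Among 5 atypical receptors, which bind chemokines without classical signalling, only Ccrl2 was above background, at 11.47, 11.23 and 11.30. Of the chemokines with other names, Pf4, a platelet chemokine, was at 8.61, 8.54 and 8.54, Ppbp was below background, and Xcl1, which encodes lymphotactin, was at 6.66, 5.03 and 5.54. Xcl1 was the only 1 of the 31 genes past 2-fold, with differences of -1.63 and -1.12 and a value below the background level under astragaloside IV. Of 8 markers of T and NK cells, which make lymphotactin, 4 were above background, and Cd3e, Cd3g, Ncr1 and Klrb1c were not. Against control Il2rb differed by -1.01 and -0.84, Cd8a by -0.32 and -0.32, Gzmb by 0 and -0.26 and Cd4 by 0.24 and 0.23. Over these 4 the mean difference from control was -0.27 under astragaloside IV and -0.30 under oxymatrine. The mean log2 level of all 8, which includes the markers below background, was 5.90 in control, 5.74 under astragaloside IV and 5.83 under oxymatrine. The part of T and NK cells in the Xcl1 values was not tested.

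Transcription factors that switch on chemokine genes differed from control in both directions. All 13 analysed were above background, 6 of them below control, 5 above and 2 level under astragaloside IV, and 6 below, 4 above and 3 level under oxymatrine. Of all genes above background, 39.9% were lower and 30.6% higher under astragaloside IV, and 45.2% and 28.9% under oxymatrine. The NF-kB subunit genes differed in sign. Rela was at 15.33 in control, 15.51 under astragaloside IV and 15.69 under oxymatrine, and Rel at 16.45, 16.56 and 16.51. Nfkb2 was at 14.47, 14.22 and 14.19 and Relb at 12.27, 12.06 and 11.99. Rela and Rel were thus lowest in control, and Nfkb2 and Relb highest there. Nfkb1 was listed but not measured. Irf7, a regulator of type I interferon genes downstream of TLR9, stood at 15.05, 14.95 and 14.84.

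Among the enzymes that cleave or shed chemokines, 5 of 6 were above background. Adam10, which sheds Cxcl16 and Cx3cl1, was at 11.92 in control, 11.87 under astragaloside IV and 11.54 under oxymatrine. Dpp4, which trims the N-terminus of several chemokines, was at 11.99, 11.92 and 11.79. All 5 were lower than control under oxymatrine, by a median of -0.14, and 4 were under astragaloside IV, by a median of -0.05, where 45.2% and 39.9% of all genes above background were lower.

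**Figure D5:**
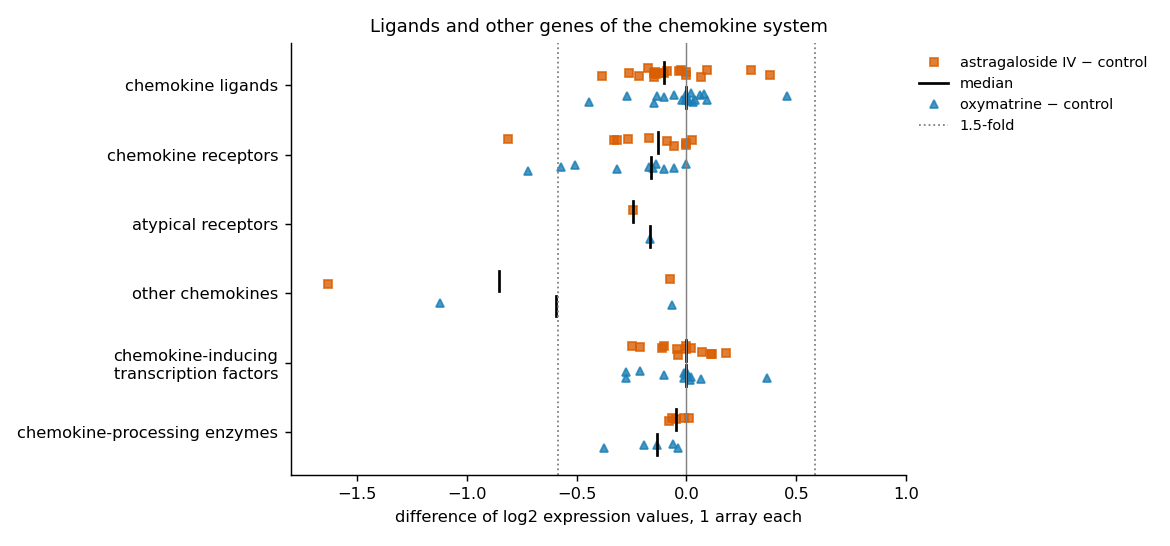
Difference of log2 expression values from control (horizontal axis) for the chemokine ligand genes and 5 lists of other chemokine genes above background, with squares for astragaloside IV, triangles for oxymatrine, black bars at the medians and dotted lines at 1.5-fold. Receptor genes have medians of -0.13 and -0.16, ligand genes of -0.10 and 0; the far left points among other chemokines are Xcl1.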

How the data were processed

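RNA of 3 samples, 1 per group, was hybridised to a whole-transcript array as biotin-labelled cRNA, per the labels' protocols. Each probe set has 1 deposited log2 value per array, which the authors computed by robust multi-array averaging (RMA) according to the submitters' processing notes, and the sources used here give no software or version. RMA subtracts background, equalises arrays by quantiles and summarises probes by median polish, which often gives equal values between arrays. Values ran from 1.78 to 19.67, from which the log base was inferred. Levels of 16 or more, found for 186 genes, are not what plain 16-bit intensities give on a log2 scale. The base is therefore not certain, and every fold size rests on it. Medians over all 28846 probe sets were 5.68, 5.74 and 5.75 for control, astragaloside IV and oxymatrine.

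Probe sets were named through the platform annotation, which gave 1 symbol to 19572 of them. For the 55 genes with several, the brightest probe set was used. All 35 members matched RefSeq by Entrez identifier. Each comparison is a difference of 2 log2 values. The SD beside single genes is that of the difference over genes of similar level, in 20 bins of 533 or 534 genes above background. It is no replicate error. Every member was named, and the members and lists were chosen with earlier results of these data known. By the fixed rule for sequences the promoter of Ccl9, which holds TATAAA alone, could have been printed. That of Cxcl1 was added after its letters were seen. Members not searched for motifs were Ccl5, Cxcl16, Ccl4, Ccl2, Cxcl11, Ccl7, Ccl24, Ccl26, Ccl11, Cxcl17, Cxcl5 and Ccl21c. Alternatives were lowess centring (fraction 0.3), quantile normalisation, centring on the median, other level filters, averaged probe sets, the mean, and 1.5-fold and 3-fold thresholds. The calculation was tested on simulated data with 3-fold changes. That test does not cover differences as small as those of the ligand genes, or equal values between arrays. Scripts ran in Python 3.11.15 on pandas 2.3.3, numpy 2.4.6, statsmodels 0.14.6 and matplotlib 3.10.9.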

Additional observations from a re-analysis of the deposited data

How the results depend on the processing

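The number of ligand genes above background was 19 with each array set against its own percentile and with averaged probe sets, 24 with the 90th percentile and 18 with the 99th. None of the 19 passed 1.5-fold in any comparison, so none could pass 2-fold or 3-fold. After centring on the median, the median difference with astragaloside IV was -0.16, and with oxymatrine it was -0.063 with 15 genes lower and 3 higher. With no level filter the median with astragaloside IV was -0.027 with 11 higher, the oxymatrine counts were 11 lower and 15 higher, and those between the treated arrays were 19 lower and 11 higher. These counts are over 35 genes in place of 19. Other medians moved by less than 0.05. Of the 228 single-gene values under alternatives, 0 moved by as much as the SD of genes of that level. Those with averaged probe sets could not move, since each of the 19 genes had 1 probe set. No paired analysis was possible because each group had 1 array. That number limits the precision here, and arrays have no read depth.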
